A study of Mus musculus with 6 samples.

Results

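The genes described here encode 8 transcription factors of the hepatocyte lineage, Foxa1, Foxa2, Foxa3, Onecut1, Onecut2, Prox1, Gata4 and Gata6. Open chromatin at these genes was read out by ATAC-seq, an assay that uses a transposase to cut accessible DNA and tag the pieces for sequencing. Members were every deposited peak whose gene symbol was one of the 8, which gave 14 of 22412 peaks. Foxa2 had 2 peaks, Onecut2 had 4, Gata4 had 5, and Foxa3, Prox1 and Gata6 had 1 each. Foxa1 and Onecut1 had no peak there. The deposited table holds part of a larger set of peaks, so a missing peak does not show closed chromatin. Mouse livers formed 2 groups, 3 samples titled Ad-EGFP, an adenovirus for a fluorescent marker protein, and labelled control, and 3 titled Ad-Dyrk1b and labelled as overexpressing that kinase. The labels give no age, strain, viral dose or time after infection, nor do they say whether samples of a group came from separate animals. The p-values then reflect only how these samples varied, which can be technical.

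The FOXA proteins are pioneer factors: their forkhead domain binds target sites on nucleosomal DNA and helps to open it for other factors, and liver is not specified from foregut endoderm when Foxa1 and Foxa2 are both lost. Onecut1 (also called HNF6) and Onecut2 carry a cut domain and a homeodomain and act in the choice between hepatocyte and bile duct fates. Prox1 is a homeodomain protein of early hepatoblasts that is also the defining factor of lymphatic endothelium. Gata4 and Gata6 are zinc finger factors of the liver bud, and Gata4 is also known from sinusoidal endothelial and stellate cells of the liver.

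No peak of these genes passed the test for a difference between the groups. In edgeR's quasi-likelihood test over 22051 peaks, 0 of 14 had a Benjamini-Hochberg adjusted p under 0.05, where 0.0317% of all tested peaks did. The lowest adjusted p was 0.200, at an intronic peak of Onecut2 that stood lower with Dyrk1b, and the highest was 0.997. At an unadjusted p under 0.05, 1 of 14 peaks was found (7.14%), against 14.2% of all tested peaks. Groups did not overlap at 2 of 14 peaks (14.3%), against 19.5% of all tested peaks, and both lay in Onecut2 with Dyrk1b lower (9.97% of all tested peaks did not overlap in that direction). By DESeq2 0 of 14 were called, with 12 of 14 given no adjusted p, and limma-trend also called 0. The 14 log2 changes were 7 positive and 7 negative, with 6 to 8 positive under other scalings, and their median was -0.013, beside 0.0047 over all tested peaks.

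The chromatin at the Foxa2 start can be set beside its sequence, since this is the one gene of the set with peaks that the deposited annotation calls promoter. The peak nearest the start ran from 241 bases before to 141 bases after it in the deposited annotation. If the RefSeq window below has the same start, the peak covers nearly all of the 300 bases shown for Foxa2. The window of Foxa1, a paralog with no peak in the table, is shown for comparison. Both are promoter windows of RefSeq on GRCm38.p6, from 250 bases before to 50 bases after the gene start, written on the gene's strand, with matches to the motifs named below in capitals.

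Foxa2 promoter (chr2:148046920-148047219, minus strand): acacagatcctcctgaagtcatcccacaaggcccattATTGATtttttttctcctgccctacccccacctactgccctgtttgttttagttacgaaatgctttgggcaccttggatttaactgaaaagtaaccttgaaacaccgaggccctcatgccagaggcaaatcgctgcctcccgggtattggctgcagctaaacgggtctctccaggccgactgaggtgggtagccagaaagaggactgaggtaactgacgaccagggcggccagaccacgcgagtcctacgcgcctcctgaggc

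Foxa1 promoter (chr12:57546062-57546361, minus strand): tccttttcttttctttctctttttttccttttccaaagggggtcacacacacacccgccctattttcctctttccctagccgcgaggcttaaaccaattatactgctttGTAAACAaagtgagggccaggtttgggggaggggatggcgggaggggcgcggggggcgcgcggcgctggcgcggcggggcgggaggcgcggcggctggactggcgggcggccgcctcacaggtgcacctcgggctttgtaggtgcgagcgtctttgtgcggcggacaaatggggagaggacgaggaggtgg

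Motifs searched on both strands were TGTTTAC for FOXA, ATCAAT for ONECUT, AGATAA for GATA and CAAAGTCCA for HNF4A, none of which overlapped another in these windows. The Foxa2 window held a single match, to the ONECUT letters in reverse (ATTGAT), beginning 213 bases before the start. That is inside the peak if the deposited start is the same one. The Foxa1 window held a single match, to the FOXA letters in reverse (GTAAACA), 141 bases before the start. Of 32851 windows of the same length, 7.54% held the ONECUT letters, 3.65% those of FOXA, 11.2% those of GATA and 0.475% those of HNF4A. The Foxa2 window had 12 CpG dinucleotides and a GC content of 54.3%, and the Foxa1 window 26 and 62.3%, against medians of 7 and 52.7% over all windows. Windows were found for 5 of the 8 genes. Foxa2 has 3, and the one shown was taken to be at the start used by the deposited annotation, whose gene length is the same. Of the others 1 held a GATA match and 1 held none. The single windows of Foxa3 and Onecut1 and both windows of Prox1 held no match.

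Coordinates of peaks are printed as deposited. The submitters' notes list mm10, but Foxa2 runs from 147884797 to 147888889 on chromosome 2 in the deposited annotation and from 148042877 to 148046969 in the GRCm38 gene table, with the same length of 4093 bases in both. The build of the peak positions is therefore not named here, and the windows above were matched to genes by symbol and not by position. No sequence is shown for the other peaks.

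Reads in the 22412 peaks came to 855787, 840463 and 762633 in controls 1 to 3 and to 768418, 891204 and 1267934 in Dyrk1b libraries 1 to 3, which is 1.67% to 2.63% of the library totals of 37.97 M to 48.2 M reads behind the deposited RPKM values. The common biological coefficient of variation was 19.9%. Counts at the 14 peaks ran from 8 to 105 reads per library with a median of 27, and counting alone gives a value of 27 reads an error of 19.2%. The 95% intervals of the log2 changes had half-widths of 0.44 to 0.87, and 6 of the 14 intervals reached beyond a 2-fold change in at least 1 direction. Among all tested peaks, 2 were called higher and 5 lower, against 2 and 2 without TMM scaling, 0 and 6 with loess offsets and 1 and 0 with scaling to the RPKM library totals, which moved the median of all peaks to 0.17.

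Per length, the peaks of these genes spread over most of the rank order of all peaks. The deposited RPKM values (reads per kilobase of peak and per M reads of the library) were used for levels between genes, since peaks were 254 to 815 bases long. Of the 14 peaks, 8 lay above the median of all peaks, which was 1.64 RPKM. The order ran from the peak past the end of Foxa3, at 2.76 ± 0.857 RPKM (SD, n = 6 libraries), through an intronic peak of Onecut2 (2.18 ± 0.387 RPKM) and the peak at the start of Gata6 (2.17 ± 0.600 RPKM), to an intronic peak of Gata4 at 1.08 ± 0.510 RPKM. These 4 stood at the 97.5th, 86.7th, 86.1st and 8.63rd percentile of all peaks. Of the 13 pairs of neighbours in this order, 0 differed by more than the larger SD of the pair, so the order is not resolved from one peak to the next. By class, 11 of the 14 peaks were intronic (78.6%), against 60.0% of all peaks, and 2 were promoter peaks, against 15.2% of all peaks.

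**Figure D1:**
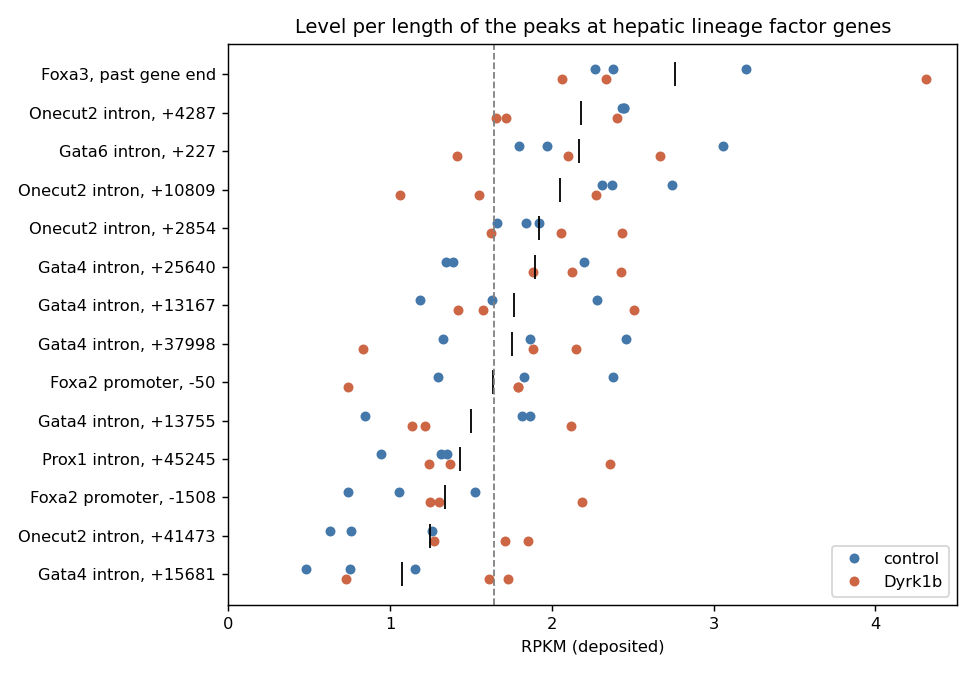
Deposited RPKM (reads per kilobase of peak and per M reads of the library) of the 14 peaks in each library, controls in blue and Dyrk1b overexpression in orange, with the mean of the 6 libraries as a black bar and the median of all peaks (1.64) as a dashed line. Names give the class and the distance in bases from the gene start, other than for the Foxa3 peak, which is named as past the gene end, and the spread within a peak is wider than the step to its neighbour.

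At Foxa2, the peak at the start and the peak farther upstream had log2 changes of opposite sign, and neither passed the test. The start peak (chromosome 2, 147888748 to 147889130, centre 50 bases upstream) held 41.0, 26.7 and 36.3 CPM in the controls and 17.3, 28.7 and 25.3 CPM with Dyrk1b, in TMM-normalised counts per M reads in peaks. Control 2 lay inside the Dyrk1b range, so the groups overlapped. The mean was 34.7 ± 7.29 CPM in controls against 23.8 ± 5.87 CPM with Dyrk1b (SD, n = 3), with a log2 change of -0.53 ± 0.35 (SE, 95% interval -1.22 to 0.17, adjusted p = 0.483 by edgeR).

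The upstream peak of Foxa2 (147890014 to 147890781, centre 1508 bases upstream) held 52.8, 43.7 and 29.6 CPM in the controls and 58.4, 41.9 and 62.2 CPM with Dyrk1b. The highest values were in Dyrk1b 1 and 3, and Dyrk1b 2 lay below controls 1 and 2. With Dyrk1b the log2 change was 0.36 ± 0.28 (95% interval -0.19 to 0.91, adjusted p = 0.548 by edgeR), and it stood at 0.56 without control 1 and 0.17 without control 3. Whether a peak moved apart from the other peaks of its gene was tested with edgeR's diffSpliceDGE, and the Foxa2 peaks did not pass (adjusted p = 0.872 for the start peak and 0.922 for the upstream peak). Summed over both peaks, Foxa2 held 84.6 ± 16.6 CPM in controls against 87.4 ± 10.1 CPM in Dyrk1b libraries, and its log2 change of 0.052 ± 0.21 turned negative without control 2, control 3 or Dyrk1b 3. In bulk tissue, fewer cells with an open site and less opening per cell cannot be told apart, here or at the peaks that follow.

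The Foxa3 peak (chromosome 7, 18744320 to 18744766) is classed as downstream, with its centre 2666 bases past the gene end, and the distance column of the table measures it from the start of another gene. Foxa3 is known as an abundant FOXA factor of adult liver. Its peak held 64.5, 54.7 and 55.1 CPM in the controls and 63.7, 38.6 and 71.4 CPM with Dyrk1b. The Dyrk1b libraries held both the lowest and the highest value. The log2 change was 0.0049 ± 0.25 (95% interval -0.50 to 0.51, adjusted p = 0.995 by edgeR), with a sign that depended on the fit.

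Onecut2 held the peaks that stood farthest apart between the groups, in both directions. All 4 lie in the same intron, the first and only one of its annotated transcript, on chromosome 18. The peak 10809 bases past the start (64483654 to 64484146) held 52.8, 72.9 and 59.2 CPM in the controls and 31.8, 32.0 and 41.5 CPM with Dyrk1b. Every control lay above every Dyrk1b library, with means of 61.6 ± 10.3 and 35.1 ± 5.51 CPM. The log2 change was -0.79 ± 0.27 (95% interval -1.33 to -0.25), with an unadjusted p of 0.00489 and an adjusted p of 0.200 by edgeR's quasi-likelihood test. It lay between -0.94 and -0.60 in every alternative fit. Its adjusted p lay between 0.194 and 0.660 in the alternative fits that gave one, and DESeq2 gave none.

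The neighbouring Onecut2 peak, 4287 bases past the start (64477240 to 64477516), held 30.5, 36.4 and 35.0 CPM in the controls and 27.9, 19.8 and 24.6 CPM with Dyrk1b. The groups did not overlap here either. Its log2 change was -0.50 ± 0.35 (95% interval -1.19 to 0.19, adjusted p = 0.506 by edgeR). At the peak nearest the start, 2854 bases past it (64475805 to 64476086), the means were 25.7 ± 4.15 CPM in the controls and 25.8 ± 1.85 CPM with Dyrk1b (log2 change 0.0040 ± 0.37).

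The most distant Onecut2 peak, 41473 bases past the start (64514359 to 64514770), had the largest positive change of the 14. It held 14.1, 27.9 and 13.4 CPM in the controls and 31.8, 32.0 and 26.1 CPM with Dyrk1b. Control 2 lay above Dyrk1b 3, and controls 1 and 3 lay below all Dyrk1b libraries. This gave a log2 change of 0.68 ± 0.39 (95% interval -0.11 to 1.47, adjusted p = 0.424 by edgeR), and 1.10 without control 2. On the RPKM scale, which divides by the library totals, the groups at this peak lay just apart. They held 0.629 to 1.26 RPKM in controls and 1.27 to 1.85 RPKM with Dyrk1b. On that scale the median log2 ratio of all peaks is 0.17, so values with Dyrk1b lie higher in general. Groups lay apart in RPKM at 3 of the 14 peaks, and the share over all peaks was not measured on that scale.

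Against the change of Onecut2 as a whole, the distant peak stood 0.96 higher on the log2 scale (unadjusted p = 0.0137, adjusted p = 0.674 by diffSpliceDGE), and the peak at 10809 bases 0.51 lower (adjusted p = 0.827). Of the 11 peaks of genes with several peaks, 0 passed this test, 1 (9.09%) had an unadjusted p under 0.05, and 0 passed by limma's diffSplice. Over all 13222 peaks in the test 0% passed and 6.1% had an unadjusted p under 0.05. Summed over its 4 peaks, Onecut2 held 131, 184 and 148 CPM in the controls and 134, 121 and 132 CPM with Dyrk1b, so the groups overlapped by control 1. The log2 change of the sum was -0.26 ± 0.17 (95% interval -0.60 to 0.091, adjusted p = 0.483 by edgeR), and -0.11 without control 2.

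**Figure D2:**
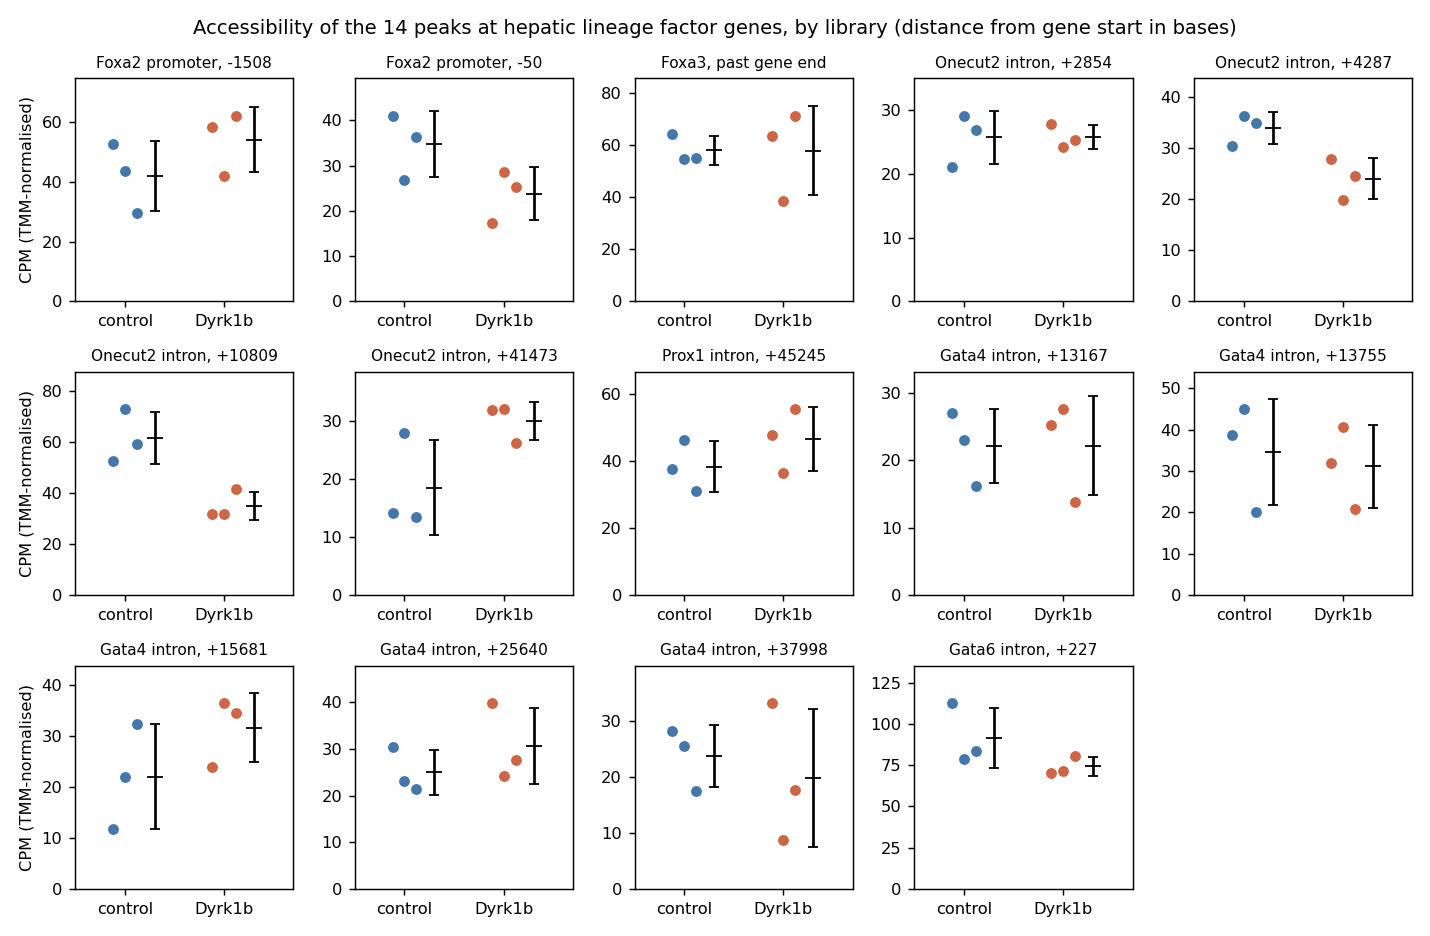
TMM-normalised reads (CPM, counts per M reads in peaks) of each peak by library, controls in blue and Dyrk1b overexpression in orange, with mean and SD in black (n = 3). Titles give the class and the distance from the gene start in bases (for Foxa3, that the peak lies past the gene end), and only the Onecut2 peaks at 4287 and 10809 bases have groups that do not overlap.

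The Prox1 peak lies in intron 4 of 4, 45245 bases past the start (chromosome 1, 189857350 to 189857982). It held 37.5, 46.2 and 30.9 CPM in the controls and 47.8, 36.4 and 55.3 CPM with Dyrk1b. Dyrk1b 1 and 3 lay above all controls and Dyrk1b 2 among them. The log2 change was 0.29 ± 0.29 (95% interval -0.29 to 0.86, adjusted p = 0.657 by edgeR) and stayed positive in all alternatives, from 0.13 without Dyrk1b 3 to 0.46 with the RPKM library totals. It was 0.17 without control 3, 0.45 without control 2 and 0.44 without Dyrk1b 2.

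Gata4 had the most peaks, all classed as intronic and all with groups that overlapped. On chromosome 14, 3 of them lie in intron 2 of 6 of one transcript and 2 in intron 1 of 1 of another. The peak 15681 bases past the start of the second transcript (63493191 to 63493729) had the lowest p, and held 11.7, 21.9 and 32.3 CPM in the controls and 23.9, 36.4 and 34.6 CPM with Dyrk1b. Dyrk1b 2 and 3 lay above all controls, and the controls differed among themselves by more than the groups did. The log2 change was 0.55 ± 0.37 (95% interval -0.19 to 1.30, adjusted p = 0.493 by edgeR), with 0.25 without control 1 and 0.93 without control 3. Its companion in that intron lies 25640 bases past the same start (63483348 to 63483655). By the distances of the intron 2 peaks, this companion also lies just upstream of the start of the transcript with 6 introns. It held 25.0 ± 4.79 CPM in the controls and 30.6 ± 8.18 CPM with Dyrk1b (log2 change 0.26 ± 0.36). Leaving out Dyrk1b 1 or control 3 brought that change to 0.060 or 0.17, and leaving out control 1 or Dyrk1b 2 to 0.43 or 0.40.

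In intron 2 of the longer Gata4 transcript, the peaks at 13167 and 13755 bases past its start are 226 bases apart and had log2 changes of -0.030 ± 0.42 and -0.19 ± 0.34. The peak at 13755 bases (63468713 to 63469172) held 34.6 ± 12.9 CPM in the controls and 31.1 ± 10.1 CPM with Dyrk1b, and that at 13167 bases (63469399 to 63469661) held 22.1 ± 5.49 and 22.2 ± 7.35 CPM. At both, control 3 was the lowest control and Dyrk1b 3 the lowest Dyrk1b library. The peak at 37998 bases (63444573 to 63444826) had a log2 change of -0.29 ± 0.44, the widest error of the 14, with Dyrk1b 2 at 8 reads, the lowest count of all. Without Dyrk1b 1 it stood at -0.79, without Dyrk1b 2 at 0.048, without control 1 at -0.15 and without control 3 at -0.47.

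Summed over its 5 peaks, Gata4 held 150, 153 and 118 CPM in the controls and 172, 154 and 129 CPM with Dyrk1b. The groups overlapped, and the log2 change was 0.095 ± 0.17 (95% interval -0.25 to 0.44, adjusted p = 0.829 by edgeR). In the same libraries, 4 of 8 sinusoidal endothelial markers had peaks, 6 in all, and 5 of these were positive. Their summed levels were 169 to 196 CPM in the controls and 220 to 239 CPM with Dyrk1b. Of 7 stellate markers 2 had peaks, 2 in all and both positive, with 31.7 to 48.6 and 48.5 to 59.1 CPM. Of all tested peaks 50.5% were positive. Groups stood apart at 20.4% of all gene sums, and no such share was made for sums over a list. These 8 marker peaks were not called, and their part in the Gata4 values was not tested.

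Gata6 had the strongest peak of the set in CPM. It is classed as intron 1 of 2, but spans the annotated start, from 180 bases before to 634 bases after it (chromosome 18, 11051884 to 11052698). It held 113, 79.0 and 83.4 CPM in the controls and 70.3, 71.7 and 80.6 CPM with Dyrk1b. Control 1 lay above all others, and Dyrk1b 3 lay above control 2. The peak had a log2 change of -0.30 ± 0.22 (95% interval -0.74 to 0.14, adjusted p = 0.539 by edgeR), and -0.12 without control 1.

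Among 19025 peaks at other named genes, those closest to the Gata6 peak in pattern over the 6 libraries were an intronic peak of Kcnk5 (Pearson r = 0.993, Spearman rho = 0.886), the 5′ UTR peak of Fig4 (0.991, 0.714) and the 3′ UTR peak of Gnat1 (0.989, 1). Without control 1 and Dyrk1b 1, the libraries farthest from the median at Gata6, the r values were 0.932, 0.916 and 0.916. They were the highest of all those compared, and are given as a description.

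**Figure D3:**
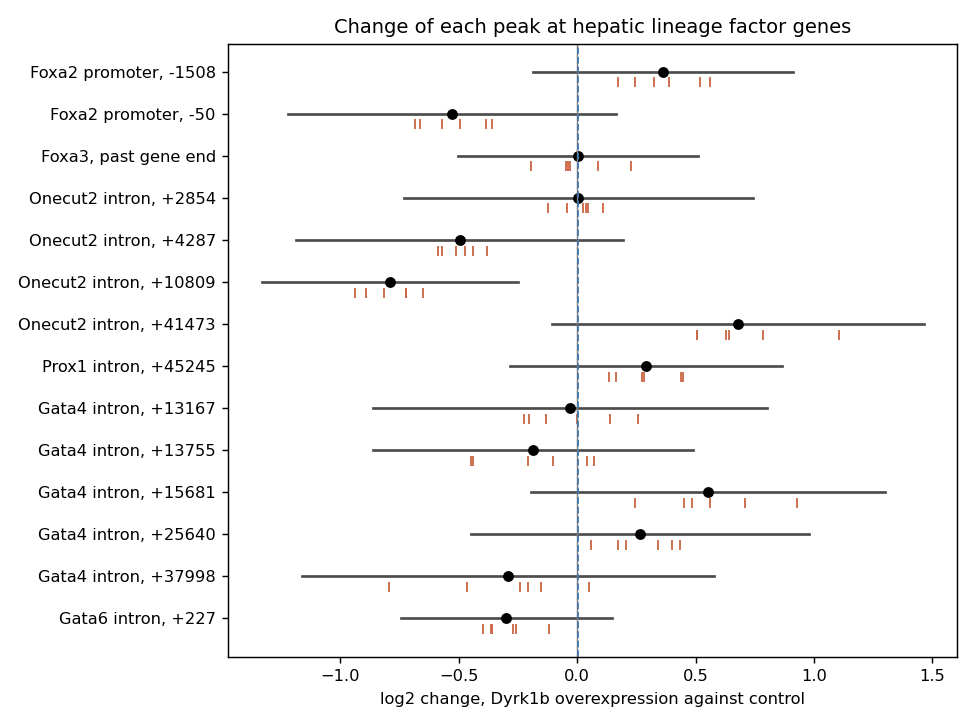
Log2 change of each peak with Dyrk1b overexpression against control (black points) with its 95% interval (grey lines) and the values with each of the 6 libraries left out in turn (orange ticks). The interval of the Onecut2 peak at 10809 bases (-1.33 to -0.25) is the only one of the 14 that does not hold 0, and the dashed line marks the median of all peaks (0.0047).

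Per gene, 0 of the 6 genes with a peak passed the test between the groups. In edgeR's test of reads summed over the peaks of each gene, 0.198% of 10609 genes passed, and the adjusted p of the 6 ran from 0.483 for Onecut2 to 0.967 for Foxa3. At an unadjusted p under 0.05 there were also 0 of the 6, against 15.5% of all genes, and 0 had groups that did not overlap, against 20.4%. DESeq2 and limma-trend called 0 as well. For Foxa3, Prox1 and Gata6 the sum is the same single peak.

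**Figure D4:**
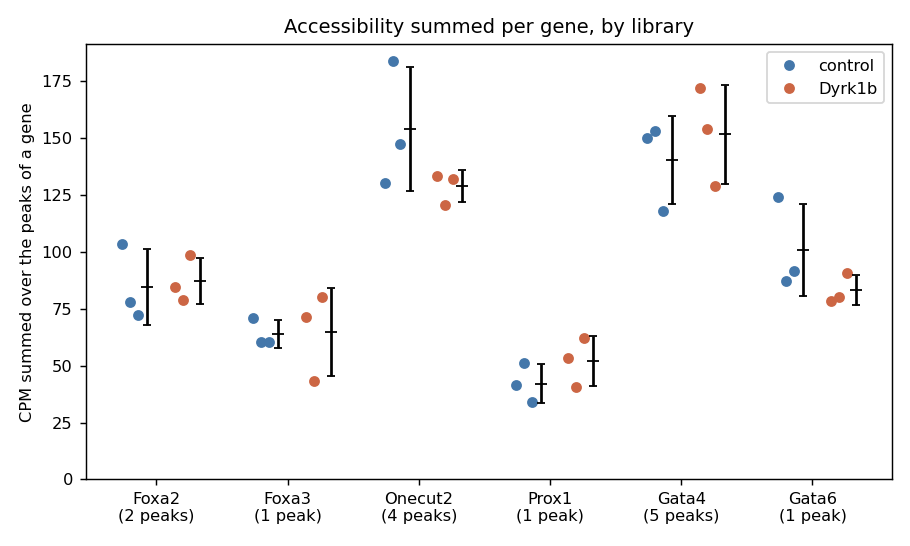
TMM-normalised reads summed over all peaks of a gene (CPM) by library, controls in blue and Dyrk1b overexpression in orange, with mean and SD in black (n = 3). The groups overlap at all 6 genes.

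The genes without a peak were looked at through their neighbours in gene order. Beside Foxa1, Mipol1 had 1 peak, in its 3′ UTR (chromosome 12, 57543122 to 57543628), and Ttc6 had none in the table. The Mipol1 peak is given in deposited coordinates, which cannot be compared with those of the Foxa1 window. It held 17.0 ± 1.55 CPM in the controls and 23.8 ± 8.07 CPM with Dyrk1b. Beside Onecut1, Fam214a had a 5′ UTR peak with 66.4 ± 6.80 CPM in the controls and 56.6 ± 11.9 CPM with Dyrk1b and an intronic one with 41.2 ± 3.46 and 44.3 ± 4.02 CPM, and Wdr72 had none. By edgeR 0 of these 3 peaks were called, and their lowest unadjusted p was 0.281.

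Other factors of the hepatic network gave the same count of calls. Of the 15 such genes reported here 10 had peaks, 29 in all, and 0 were called by edgeR, DESeq2 or limma-trend. DESeq2 gave no adjusted p to 16245 of the 22051 tested peaks, and could not call those. Of the 29, 8 were positive and 21 negative, with a median log2 change of -0.19, where 50.5% of all tested peaks were positive. By edgeR 4 of the 29 had an unadjusted p under 0.05, against 14.2% of all tested peaks. The lowest p were at an exonic peak of Xbp1, a factor of the unfolded protein response (-0.62 ± 0.23, adjusted p = 0.238), the promoter of Zfpm1, a cofactor of GATA proteins also known as FOG1 (-0.51 ± 0.21, 0.275), an intronic peak of the nuclear receptor gene Nr5a2 (0.81 ± 0.38, 0.330), and the promoter of Nr1h4, which encodes the bile acid receptor FXR (-0.70 ± 0.34, 0.340), all by edgeR. Cebpa, Cebpb, Klf6, Sall4 and Zfpm2 had no peak in the table, which again does not show closed chromatin.

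Markers of liver cell types bear on the tissue label. Hepatocyte markers had 8 peaks at 6 of 9 genes, 7 of them negative (median -0.34), with summed levels of 343 to 592 CPM in the controls and 366 to 425 CPM with Dyrk1b. The lowest p was at Fgb (-0.68 ± 0.32) and the strongest peak at Asgr1 (-0.44 ± 0.24). Hnf4a is both on this list and among the other hepatic factors, so its peaks (-0.43 and -0.13) were counted in both. Of the 6 bile duct markers reported here 0 had a peak. Of 6 macrophage markers 2 had peaks, 3 in all, of which 2 were positive and 1 negative (median 0.16) and 2 had an unadjusted p under 0.05. The negative one, at Spi1 (-0.50 ± 0.21), had both the lowest p and the highest level. The endothelial list had its lowest p at Pecam1 (0.68 ± 0.35) and its strongest peak at Stab1 (0.17 ± 0.25), and the stellate list at Lrat (0.74 ± 0.48) and Col1a1 (0.14 ± 0.34). Of 5 lymphoid markers only Ebf1 had a peak (1.37 ± 0.44). Ttr, Serpina1c and Cps1 of the hepatocyte list had none, and of 20 marker peaks 0 were called by edgeR and 4 had an unadjusted p under 0.05. Over all tested peaks, 0.0317% were called and 14.2% had an unadjusted p under 0.05.

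The authors' deposited table gives the 14 peaks FDR values from 0.502 to 0.983, beside a lowest FDR over all peaks of 0.0652. In the authors' deposited table the Onecut2 peak at 41473 bases has a log2 ratio of 0.87 (FDR 0.502), the highest of the 14. The authors' deposited table gives the Onecut2 peak at 10809 bases a log2 ratio of -0.61 (FDR 0.552). The median ratio of all peaks in the authors' deposited table is 0.17, so its ratios lie higher than the TMM-scaled changes.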

How the data were processed

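ATAC-seq was compared between 3 control and 3 Dyrk1b overexpression liver samples, grouped by their titles. The authors deposited read counts per merged peak, and per the file headers the RPKM values made from them, the group means, a log2 ratio of these means, and a p-value and FDR per peak. Per the submitters' processing notes Bowtie2, DiffBind and ChIPseeker were used, with no versions. Not given in the sources used here are the peak caller, the treatment of duplicates, any transposase read shift and the authors' test. The lowest deposited count is 1, so zeros may have been replaced. Peak names run to 30387, so the table holds part of a larger set.

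The tests used edgeR 4.0.16 under R 4.3.3 (TMM, filterByExpr, quasi-likelihood, no covariate), per peak over the whole table and per gene on reads summed by symbol, and diffSpliceDGE tested peaks against their gene. The 2602 peaks with no symbol stayed out of the sums. CPM values are TMM-normalised, SE is the log2 change over the root of F, and log2 CPM used a prior count of 2. Only these edgeR fits were run on simulated counts with known changes, and the share of those changes that was called is not given here. Alternatives were other scalings, no filter, DESeq2 1.42.0, limma-trend (limma 3.58.1), a replicate block and leaving out each library.

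Members, lists, motifs and tests were chosen with earlier results of these data known. All 14 peaks are named by rule, as are the 4 other hepatic factors and, per marker list, the peak with the lowest p and the strongest. One gene of the factor and bile duct lists is not reported here and stayed out of their counts. Neighbouring genes come from the GRCm38 gene order, and Foxa1 was added to the sequences after the peaks were known.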

Additional observations from a re-analysis of the deposited data

How the results depend on the processing

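Counts of called peaks, gene sums, within-gene differences and other hepatic factor peaks were 0 in every alternative run for them. Restricting to promoter peaks was run for the peaks of these genes only, and also gave 0. DESeq2 has no within-gene test here. With the replicate block, 0 peaks and 0 gene sums of these genes were called, as without it. Deviations of same-numbered libraries from their group means had correlations of -0.0098, -0.014 and 0.0073, so no shared deviation was seen. With few reads per peak, this check cannot exclude that same-numbered samples were handled together. Over the whole table, calls of peaks numbered 7 by edgeR, 4 by library size only, 1 with RPKM library totals, 2 by limma-trend, 19 by DESeq2 and 0 to 10 with a library left out, where 0 came without Dyrk1b 3. Gene sums called numbered 21, against 36 with loess offsets, 1 with RPKM totals, 11 by limma-trend, 10 by DESeq2, 5 with the block and 1 to 36 with a library left out. Within-gene calls numbered 0, against 15 with loess offsets and 39 by limma's diffSplice.

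Some signs turned between fits, and the cause was not tested. Most of these changes were near 0 in the main fit, but the Gata4 peaks at 37998 and 13755 bases stood at -0.29 and -0.19. The Gata4 peak at 13167 bases stood at 0.0022 by library size only and 0.10 with RPKM totals, the Onecut2 peak at 2854 bases at -0.12 with loess offsets, and the Foxa3 peak at -0.045 by limma-trend (its gene sum -0.022) and -0.025 with the replicate block. With a library left out, log2 changes ran from -0.19 to 0.23 for the Foxa3 peak, -0.18 to 0.25 for its sum, -0.053 to 0.23 for the Foxa2 sum and -0.012 to 0.21 for the Gata4 sum. They ran from -0.79 to 0.048, -0.45 to 0.073 and -0.23 to 0.26 for the Gata4 peaks at 37998, 13755 and 13167 bases, and from -0.12 to 0.11 for the Onecut2 peak at 2854 bases. Without a change of sign, scaling to the RPKM totals brought the Foxa2 start peak to -0.35, the Gata6 peak to -0.14 and the Onecut2 sum to -0.11, and loess offsets brought Gata6 to -0.15 and the Gata4 peaks at 37998 and 25640 bases to -0.54 and 0.17. A median of 27 reads per peak and library limits what can be resolved.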
